A study of Mus musculus with 9 samples.

Results

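The mitosis and kinetochore genes are 37 genes whose products carry a cell from entry into mitosis to its division. They were taken by gene symbol from a table of 56748 genes counted in 9 RNA sequencing libraries of mouse cortex, where each of the 37 had its own row and passed the filter on low counts with 18093 genes in all. Every library came from wild-type (WT) C57BL/6J mice aged 2 to 3 months and was made from polyA RNA. Each of the 3 groups had 3 biological replicates.

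Uninjured cortex was intact tissue. Injured cortex was the core of a stab wound made with a surgical lancet over a grid of sites. Both were dissociated and sorted to remove debris, dead cells and CD171+/ACSA-2- neurons, so neither holds the whole cortex. Reactive culture was grown from dissociated lesion core in medium with 10% fetal bovine serum and was collected whole and unsorted. By the sample labels the tissue was taken 1 day after the wound and cultures were kept for 6 days. The series text instead has 3 days for injured cortex, and for cultures 24 h followed by 8 days in vitro, so the times are not settled here. Sorting, serum, time in culture and time since the wound cannot be told apart in any comparison with the cultures. Against uninjured cortex, injury itself is added to these.

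In mitosis, cyclin-dependent kinase 1 bound to A- and B-type cyclins drives entry, and chromosomes condense and attach to spindle microtubules at the kinetochore, a protein assembly built on centromeric chromatin. A checkpoint at unattached kinetochores holds back the anaphase-promoting complex (APC/C), the ubiquitin ligase whose activation releases separase and lets sister chromatids part. Transcripts of many of these genes are low in resting cells and accumulate late in the cell cycle, under repression and activation by complexes that contain the MuvB core. In adult cortex most cells do not divide, and after a wound glia, vascular cells and invading immune cells can divide.

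The promoters are shown first because that late timing is tied, as background, to short elements near the start of transcription: the cell cycle homology element (searched as TTTGAA or TTCGAA) and the CCAAT box. RefSeq promoters on GRCm38.p6, from 250 bases before to 50 bases after the start, were matched for 31 of the 37 genes. Spc24, Foxm1, Tpx2, Ccna2, Aurkb and Incenp had no entry. The lines give 110 bases before to 30 bases after the start, 5' to 3', with both elements in capitals on either strand. They are the earliest 6 genes in list order with a cell cycle homology element and at least 2 CCAAT boxes in the searched region, followed by Pttg1, a gene without either element that was chosen as a contrast after its values were seen.
Cdk1, chr10:69352883-69353022, minus strand: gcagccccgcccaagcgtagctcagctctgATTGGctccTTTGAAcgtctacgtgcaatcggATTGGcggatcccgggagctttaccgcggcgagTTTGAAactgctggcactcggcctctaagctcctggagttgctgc
Ccnb2, chr9:70421525-70421664, minus strand: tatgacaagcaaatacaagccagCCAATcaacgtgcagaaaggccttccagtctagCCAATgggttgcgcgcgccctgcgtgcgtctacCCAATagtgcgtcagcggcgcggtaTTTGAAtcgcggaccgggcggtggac
Aurka, chr2:172370541-172370680, minus strand: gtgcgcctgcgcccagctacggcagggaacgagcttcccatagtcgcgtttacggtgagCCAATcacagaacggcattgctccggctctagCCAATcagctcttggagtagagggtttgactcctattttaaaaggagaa
Bub1, chr2:127831830-127831969, minus strand: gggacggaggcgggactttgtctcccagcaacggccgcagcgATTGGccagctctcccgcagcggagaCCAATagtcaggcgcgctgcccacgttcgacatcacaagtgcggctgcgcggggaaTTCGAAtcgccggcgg
Ttk, chr9:83834579-83834718, plus strand: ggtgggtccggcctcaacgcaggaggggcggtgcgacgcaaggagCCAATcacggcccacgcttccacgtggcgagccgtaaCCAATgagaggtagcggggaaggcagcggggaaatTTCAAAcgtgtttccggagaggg
Cdc20, chr4:118437314-118437453, minus strand: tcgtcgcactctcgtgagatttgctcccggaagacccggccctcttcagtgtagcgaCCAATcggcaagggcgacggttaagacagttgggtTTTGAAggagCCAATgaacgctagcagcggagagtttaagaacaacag
Pttg1, chr11:43425952-43426091, minus strand: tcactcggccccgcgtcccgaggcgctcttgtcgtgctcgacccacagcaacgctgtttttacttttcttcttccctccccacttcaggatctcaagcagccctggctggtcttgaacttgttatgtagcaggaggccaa

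Within the printed stretch of Cdk1 the cell cycle homology elements lay 71 and 15 bases before the start, and CCAAT boxes lay 80 and 48 bases before it. In that of Ccnb2, CCAAT boxes stood 87, 54 and 21 bases before the start and an element 5 bases after it. Upstream of the printed stretch Cdk1 had another CCAAT box and Ccnb2 another element. The Aurka element lay 33 bases after the start, beyond the printed stretch. Of the 31 promoters, 22 (71.0%) held a cell cycle homology element, against 18.2% of 17491 promoters of protein-coding genes searched in the same way. A CCAAT box was present in 23 (74.2%, against 39.0%), and 14 held the element together with 2 or more CCAAT boxes (45.2%, against 2.56%).

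Other letters were searched in the same way. The Myb core AACGG occurred in 38.7% of the 31 promoters and 19.2% of all, and the forkhead core TAAACA in 16.1% and 11.6%. With 150 bases before the start the forkhead shares turned round, to 3.23% and 6.58%. E2F letters (TTCGCGC, the form TTGGCGC, the form TTCCCGC and the form TTGCCGC) occurred in 12.9% and 12.2%. A TATA box (TATAAA) occurred in 0 of 31 and in 13.3% of all promoters. Both strands were read for every motif, and E2F sites may overlap a CCAAT box on the other strand. Among the 3 genes that did not rise after injury (below), Pttg1 had neither element, Anln had 2 cell cycle homology elements without a CCAAT box, and Espl1 had 1 of each. Mad2l1, Birc5, Nuf2 and Mybl2 also had neither element. These are matches of letters, not measured binding.

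**Figure D1:**
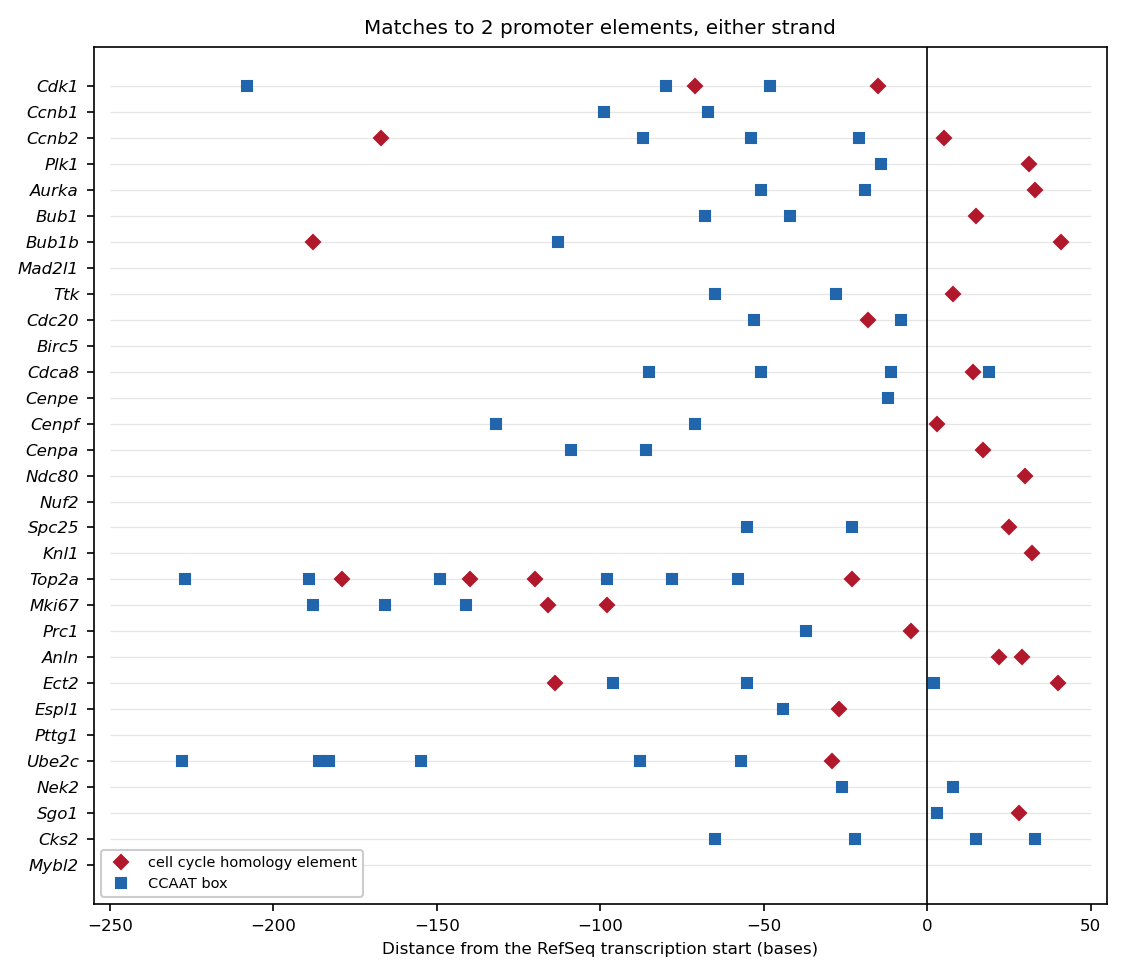
Matches to the cell cycle homology element (red diamonds) and the CCAAT box (blue squares) in the 31 RefSeq promoters, by distance in bases from the transcription start (vertical line). Most CCAAT boxes sit before the start, and 5 genes, among them Pttg1, have no match to either element.

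Total counts per library were 12205049 to 18577561 (uninjured), 20389561 to 21135163 (injured) and 16667883 to 24302770 (cultures). Uninjured replicates 2 and 3 stood apart: there the sum over 1767 receptor genes of smell and pheromone sensing was 175 and 146 CPM (counts scaled to the library total), against 14.3 to 44.0 in the remaining libraries. Changes from uninjured cortex that moved much without both are also given that way. Only uninjured replicate 1 is then left in its group, and the fit takes its spread from the injured and culture libraries. Scaling factors from the trimmed mean of M values (TMM) were 0.716 to 0.767 in cultures and 0.938 to 1.39 in the other libraries, so levels are given as TMM-normalised CPM unless stated. The 10 neuronal markers summed to 17.8 to 32.1 CPM in uninjured, 49.9 to 104 in injured and 29.8 to 42.1 in culture libraries, and no unsorted cortex was analysed here. In bulk RNA, more dividing cells and more RNA per dividing cell cannot be told apart.

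Between injured and uninjured cortex, 34 of the 37 genes were higher and 0 were lower by edgeR's quasi-likelihood test with Benjamini-Hochberg adjustment over all genes (adjusted p under 0.05). Of all genes tested, 8.99% were higher and 2.87% lower (11.9% either way). The filter on low counts keeps a gene with enough counts in 1 group alone, and it was the same for all genes. Members with few uninjured counts, such as Bub1, Knl1 and Nek2, passed it through injured or culture libraries. Against uninjured cortex they could hardly be called lower. The median log2 fold change of the 37 was 3.91 (range -0.66 to 6.40), against 0.00 over all genes. At an unadjusted p under 0.05 the counts were 34 higher and 1 lower, and DESeq2 and limma-voom each gave 34 and 0. In 34 genes every injured library lay above every uninjured one and in 1 gene below, where 16.1% and 12.5% of all genes separated. Without uninjured replicates 2 and 3, 30 genes were higher and 0 lower.

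The mitotic cyclins and their kinase all rose, 5 of 5. For this and each role below, 8.99% of all genes were higher after injury. The roles are small sets cut from a list chosen with earlier results known. Cdk1, the kinase of mitotic entry, stood at 1.60, 1.75 and 1.22 CPM in uninjured cortex, 55.3, 46.4 and 27.9 in injured cortex and 178, 193 and 169 in cultures. The groups did not overlap, and injured replicate 3 was the lowest of its group. The log2 fold change from uninjured to injured was 4.81 ± 0.30 (SE; adjusted p = 3.92e-06). Ccnb1, a B-type cyclin, had 0.663, 0.630 and 0.305 CPM in uninjured, 42.0, 49.8 and 22.1 in injured and 160, 177 and 126 in culture libraries, a change of 6.11 ± 0.40 with injury (adjusted p = 3.92e-06). The pseudogene Ccnb1-ps had 3, 4 and 3 counts in uninjured, 8, 18 and 11 in injured and 10, 23 and 16 in culture libraries. Reads shared with it could shift the low uninjured value of Ccnb1. Ccnb2, the other B-type cyclin of the list, rose most, from 0.663, 0.675 and 0.366 CPM to 49.2, 70.9 and 27.5 (6.40 ± 0.41, adjusted p = 3.92e-06). Its pseudogene Ccnb2-ps had 15, 72 and 91 counts in uninjured, 23, 10 and 46 in injured and 0, 4 and 2 in culture libraries, so reads shared between the copies could shift the low uninjured value. Ccna2, cyclin A2, rose by 4.41 ± 0.38 (5.38 without uninjured replicates 2 and 3).

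Cks2, a small subunit that binds the kinase, was already 21.7, 11.9 and 5.67 CPM in uninjured cortex and reached 60.1, 54.6 and 27.1 after injury. The rise was 1.85 ± 0.42 (adjusted p = 0.0129). The call was lost in 4 alternatives, at adjusted p from 0.0515 to 0.272, among them without injured replicate 1 and without uninjured replicate 2. Without uninjured replicates 2 and 3 the change was 1.11 (adjusted p = 0.272).

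All 3 of the other mitotic kinases rose. Plk1, which acts at centrosomes, kinetochores and the midzone, went from 0.387, 0.450 and 0.671 CPM to 20.4, 19.1 and 7.86 (4.97 ± 0.41, adjusted p = 2.44e-05). Aurka, the kinase of spindle poles, changed by 3.34 ± 0.34 and Nek2, a kinase of centrosome separation, by 5.08 ± 0.48. Nek2 had 1 to 6 counts in the uninjured libraries, and its change was 6.12 without uninjured replicate 3.

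The chromosomal passenger complex, which corrects wrong attachments, rose in 4 of 4 genes. Cdca8, its borealin subunit, was 1.55, 0.945 and 1.04 CPM in uninjured and 32.6, 29.9 and 16.3 in injured libraries (4.48 ± 0.33, adjusted p = 1.12e-05). Its kinase Aurkb changed by 4.92 ± 0.44 and Birc5 (survivin) by 5.56 ± 0.50. These changes were 5.91 and 7.99 without uninjured replicates 2 and 3. Incenp, the scaffold, rose less, by 1.77 ± 0.24, and its adjusted p was 0.0554 without those libraries.

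Spindle checkpoint genes rose in 4 of 4. Bub1b, an inhibitor of Cdc20, was 1.27, 1.03 and 1.46 CPM in uninjured cortex and 13.8, 11.6 and 7.83 in injured cortex (3.14 ± 0.32, adjusted p = 9.92e-05). Bub1, a kinase that docks on the kinetochore, had 0, 0.180 and 0.305 CPM and then 10.9, 6.91 and 5.38. Its fitted change was 5.54 ± 0.57 (adjusted p = 9.92e-05), a value that leans on uninjured libraries of 0 to 5 counts and was 6.19 without uninjured replicate 3. The library left without uninjured replicates 2 and 3 has 0 counts, so no size is given for that setting. Mad2l1, the checkpoint protein MAD2, rose by 1.47 ± 0.24 and Ttk (MPS1), the kinase that starts the signal, by 2.16 ± 0.49. The change of Ttk was 4.24 without uninjured replicates 2 and 3, where Mad2l1 missed the call (adjusted p = 0.0836). In a fit of the 2 groups alone Ttk missed it (adjusted p = 0.0697).

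The centromere and outer kinetochore genes rose in 8 of 8. Spc25, a subunit of the NDC80 complex that grips microtubules, was 2.04, 1.93 and 2.20 CPM in uninjured and 32.1, 37.0 and 23.9 in injured libraries (3.91 ± 0.25, adjusted p = 3.92e-06). The other subunits Ndc80, Nuf2 and Spc24 changed by 4.27 ± 0.52, 3.99 ± 0.31 and 5.19 ± 0.37. Cenpa, the histone H3 variant of centromeres, changed by 3.91 ± 0.34, the motor Cenpe by 3.18 ± 0.25 and the corona protein Cenpf by 3.20 ± 0.32. Knl1, the platform for checkpoint proteins, changed by 4.15 ± 0.59 from 0, 0.450 and 0.305 CPM, and by 4.92 without uninjured replicate 2. It too has 0 counts in uninjured replicate 1. Spc24 changed by 5.99 without uninjured replicates 2 and 3.

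Genes of anaphase onset and sister cohesion divided: 3 of 5 rose and 0 fell. Ube2c, the ubiquitin-conjugating enzyme of the APC/C, went from 0.939, 1.08 and 1.65 CPM to 60.3, 35.6 and 30.2 (5.11 ± 0.33, adjusted p = 3.92e-06). Its activator Cdc20 changed by 3.29 ± 0.26 and Sgo1 (shugoshin), which protects centromeric cohesion, by 3.31 ± 0.43. Pttg1 (securin), the inhibitor of separase, was 193, 171 and 203 CPM in uninjured and 147, 145 and 106 in injured libraries. These groups did not overlap, but the change of -0.51 ± 0.22 missed the call (95% interval -0.99 to -0.03, adjusted p = 0.167). Espl1 (separase) was 6.96, 9.54 and 6.65 CPM and then 7.27, 10.5 and 7.35, and the interval of its change ran from -0.60 to 0.83 (adjusted p = 0.867).

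Spindle and cytokinesis genes rose in 3 of 4. Tpx2, a spindle assembly factor that activates Aurora A, went from 1.33, 1.03 and 0.671 CPM to 18, 19.2 and 14.1 (4.06 ± 0.29, adjusted p = 1.09e-05). Prc1, which bundles midzone microtubules, changed by 3.15 ± 0.34 (4.21 without uninjured replicates 2 and 3), and Ect2, the exchange factor that starts furrowing, by 2.36 ± 0.36. Anln (anillin), a scaffold of the cleavage furrow, was 51.6, 101 and 65.1 CPM in uninjured and 52.6, 37.2 and 48.0 in injured libraries. These groups overlapped, and the change was -0.66 ± 0.30 (95% interval -1.32 to 0.00, adjusted p = 0.193). Oligodendrocyte markers also differed over the groups: all 8 of 8 were detected in every library, and they summed to 18117 to 31757 CPM in uninjured, 11387 to 16178 in injured and 365 to 734 in culture libraries. Within cultures they ran against Anln, lowest in replicate 1 where Anln was highest. In uninjured and in injured cortex the library with the highest Anln also had the highest sum of these markers. Astrocyte markers, given with the other cell types, were also lowest in cultures. The part of either in the Anln values was not tested.

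Mki67, whose product coats mitotic chromosomes and is the antigen Ki-67, had the smallest adjusted p of the 37. It was 0.552, 0.630 and 0.610 CPM in uninjured, 15.6, 16.6 and 19.4 in injured and 43.7, 36.8 and 43.4 in culture libraries, with a rise of 4.83 ± 0.25 on injury (adjusted p = 1.54e-06). Top2a, the topoisomerase that untangles sister chromatids, changed by 4.39 ± 0.28. Foxm1, a transcription factor of late cell cycle genes, went from 0.663, 0.585 and 1.10 CPM to 4.39, 2.83 and 5.62 (2.46 ± 0.45, adjusted p = 0.00400). Mybl2 (B-Myb), which joins MuvB, changed by 1.79 ± 0.49 (adjusted p = 0.0351), and by 3.43 without uninjured replicates 2 and 3. The Mybl2 call was lost in 9 alternatives (adjusted p from 0.0541 to 0.124), 7 of them without 1 library: any culture replicate, injured replicate 1 or 2, or uninjured replicate 1 or 2. The Foxm1 call was lost in 1, without uninjured replicates 2 and 3 (adjusted p = 0.0929).

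**Figure D2:**
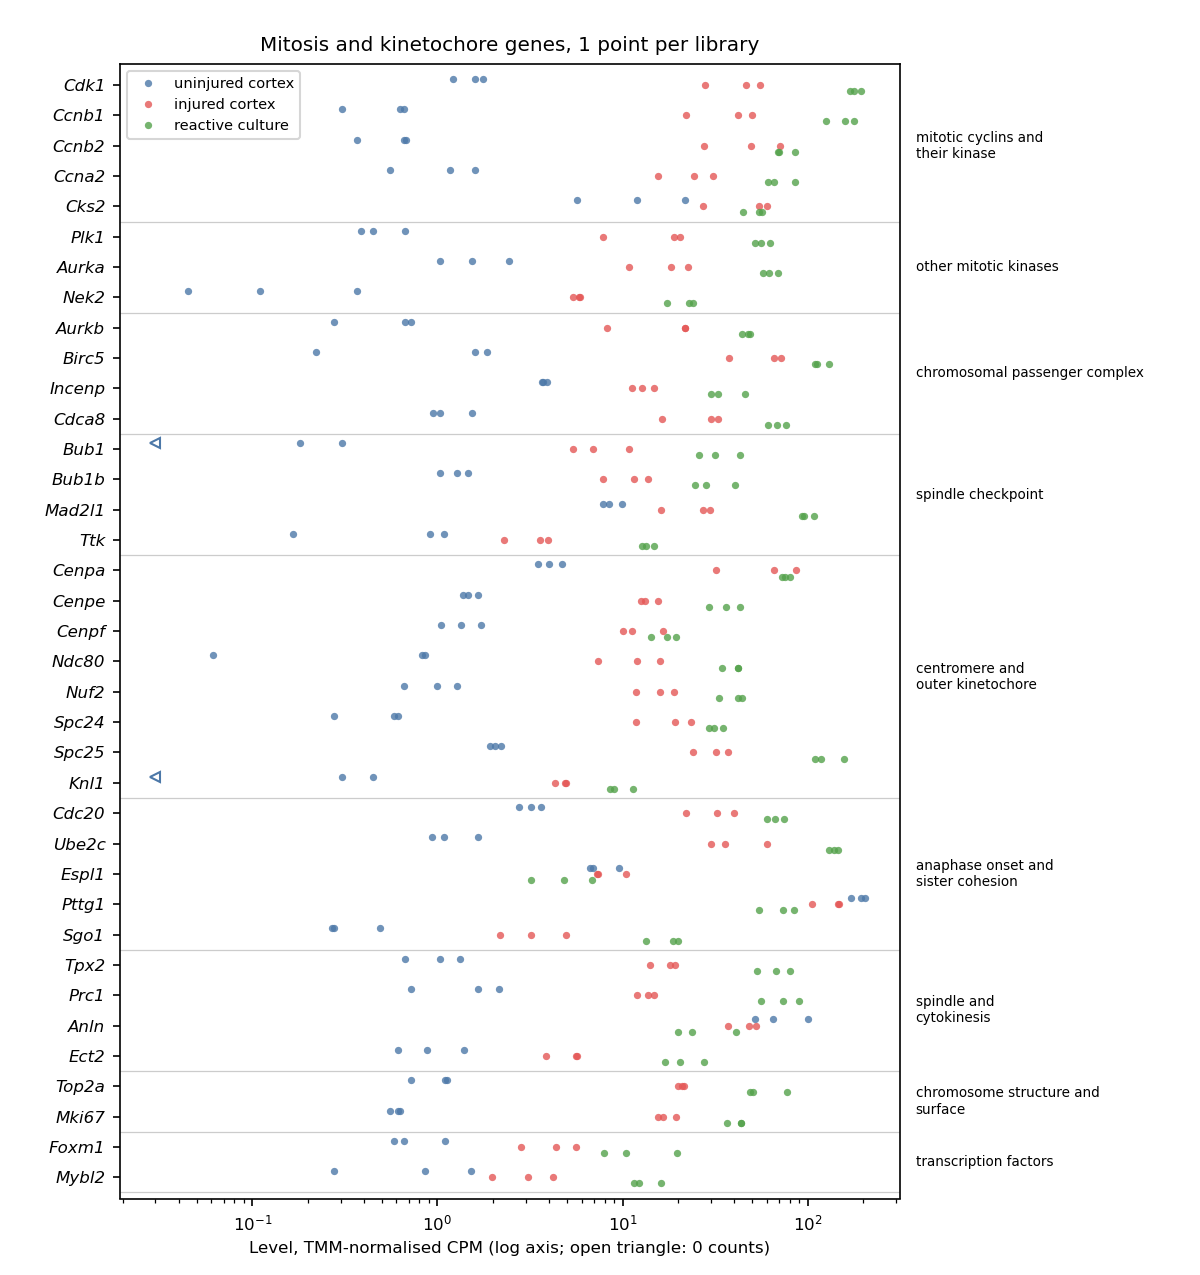
Level of each of the 37 genes in every library, in TMM-normalised CPM on a log axis, grouped by role (blue uninjured cortex, red injured cortex, green reactive culture). In 34 genes the red points lie above the blue ones, whereas Pttg1, Anln and Espl1 do not follow.

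Between cultures and injured cortex, 28 of the 37 genes were higher and 1 was lower (edgeR's quasi-likelihood test, Benjamini-Hochberg adjustment), where 20.0% of all genes were higher and 30.1% lower (50.1% either way). The median log2 fold change was 1.51 (range -0.91 to 2.44), against -0.19 over all genes. In 30 genes the cultures lay above every injured library and in 2 below, against 25.8% and 33.8% of all genes. With library totals as the only scaling, 25 were higher and 3 lower, while the median of all genes went to -0.79. Under that scaling Mki67, Foxm1 and Spc24 were no longer called.

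Prc1 rose most, from 14.8, 13.8 and 12 CPM in injured cortex to 90.2, 73.8 and 56.1 in cultures (2.44 ± 0.31, adjusted p = 5.19e-05). Sgo1 followed, from 4.95, 3.19 and 2.18 to 18.7, 20.0 and 13.4 CPM (2.34 ± 0.36, adjusted p = 2.35e-04). The kinase and its cyclin rose further, Cdk1 by 2.06 ± 0.25 and Ccnb1 by 2.03 ± 0.30. All 4 checkpoint genes rose, with a median of 2.04, among them Mad2l1 by 2.02 ± 0.24 to 95.9, 107 and 92.7 CPM. All 3 other mitotic kinases rose, with a median of 1.86. Beside these counts, 20.0% of all genes were higher.

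Of the genes that rose on injury, 6 were not called in this comparison: Ccnb2, Cks2, Birc5, Cenpa, Cenpf and Knl1. Cenpa was 86.7, 65.4 and 32.0 CPM in injured cortex and 75.5, 72.4 and 80.1 in cultures, groups that overlapped (0.31 ± 0.29, 95% interval -0.33 to 0.95, adjusted p = 0.395). Cks2 had an interval of -0.73 to 1.01 and Cenpf one of -0.18 to 1.04. Under library totals Cks2, Cenpa and Cenpf had negative changes of -0.37, -0.19 and -0.20, none of them called. Ccnb2 changed by 0.61 ± 0.30 (interval -0.04 to 1.25, adjusted p = 0.106; called in 2 alternatives, among them without injured replicate 2), Birc5 by 1.01 ± 0.40 (adjusted p = 0.0503) and Knl1 by 1.03 ± 0.47 (adjusted p = 0.0826). Birc5 was called in 8 alternatives and Knl1 in 6, so their calls sit at the threshold; leaving out uninjured replicate 1 called both. Spc24 was called here (0.81 ± 0.29, adjusted p = 0.0330) and lost the call in 6 alternatives (adjusted p from 0.0546 to 0.436): library totals, any culture replicate left out, or injured replicate 2 or 3 left out.

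Pttg1 fell, from 147, 145 and 106 CPM in injured cortex to 54.8, 84.1 and 73.2 in cultures (-0.91 ± 0.22, adjusted p = 0.00544). Espl1, at 6.88, 3.22 and 4.85 CPM in cultures, changed by -0.75 ± 0.33 (adjusted p = 0.0800). Anln, at 40.8, 23.6 and 20.0 CPM, changed by -0.71 ± 0.31 (adjusted p = 0.0730). Without culture replicate 1 both were called, and 3 genes were lower.

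**Figure D3:**
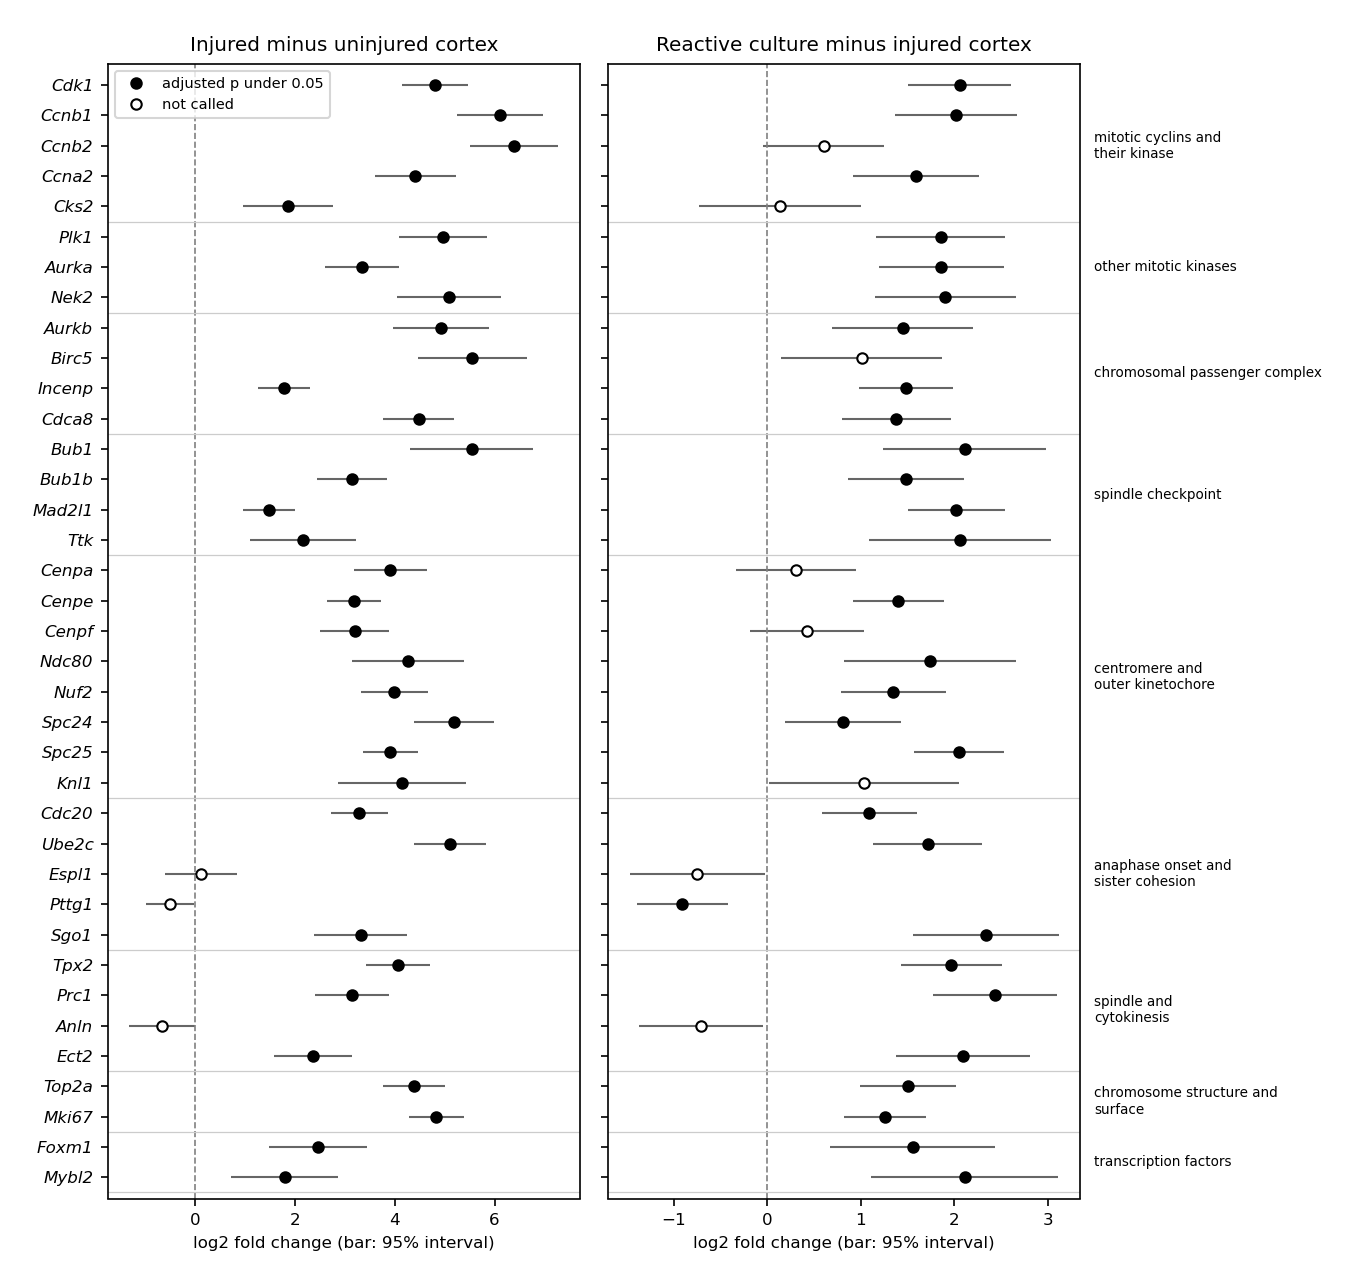
Log2 fold change of each gene with its 95% interval, from uninjured to injured cortex (left) and from injured cortex to reactive culture (right). Filled points passed an adjusted p of 0.05, 34 higher on the left, 28 higher and 1 lower on the right, and the dashed line marks no change.

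Between cultures and uninjured cortex, 34 genes were higher and 2 lower (edgeR's quasi-likelihood test, Benjamini-Hochberg adjustment), against 27.5% and 33.1% of all genes (60.5% either way). The median change was 5.59, against -0.17 over all genes. This comparison shares libraries with both others. Ccnb1 changed most, by 8.14 ± 0.42 (adjusted p = 3.6e-08), from its low uninjured level. Bub1 followed, by 7.66 ± 0.58 (adjusted p = 5.69e-07), from its 0 to 5 counts. The Bub1 change was 8.31 without uninjured replicate 3, and with replicate 1 alone, at 0 counts, no size is given. Pttg1 fell by 1.42 ± 0.23 on the log2 scale (adjusted p = 2.14e-04) and Anln by 1.36 ± 0.31 (adjusted p = 0.00249). Without uninjured replicates 2 and 3 Anln was no longer called (adjusted p = 0.0997). Espl1 changed by -0.63 ± 0.33 (adjusted p = 0.118), and was called in none of the 3 comparisons. Against uninjured cortex 3 alternatives called Espl1 lower (adjusted p from 0.00739 to 0.0455): upper-quartile factors, library totals and without culture replicate 1. Against injured cortex the last 2 of these did so too (adjusted p = 0.0107 and 0.0353).

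Summed over the 37 genes, the level was 314, 345 and 327 CPM in uninjured, 1071, 1008 and 665 in injured and 2207, 2210 and 1916 in culture libraries. Pttg1, Anln and Espl1, set apart here after their values were seen, supplied 80.0% to 84.0% of the counts in uninjured, 19.1% to 24.2% in injured and 4.65% to 5.12% in culture libraries. The sum over the 37 therefore moved less than most of its members: the other 34 went from 62.7, 63.8 and 52.2 CPM to 864, 815 and 504 and then to 2105, 2099 and 1818. Injured replicate 3 was the lowest of its group in both sums.

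**Figure D4:**
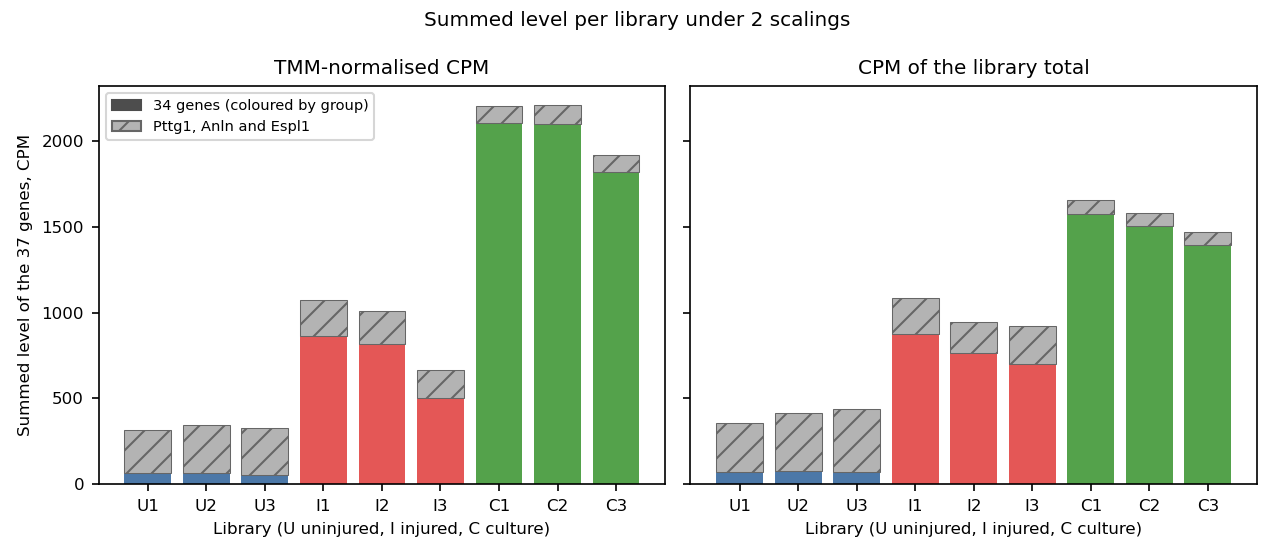
Summed level of the 37 genes in each library, in TMM-normalised CPM (left) and in CPM of the library total (right), with Pttg1, Anln and Espl1 hatched. The hatched genes make up most of the uninjured bars and 4.65% to 5.12% of the culture counts.

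Markers of several other cells also differed between groups, in differing directions, while the ranges of some lists overlapped. Monocyte and macrophage markers, 10 genes with 9 or 10 detected per library, summed to 491 to 590 CPM in uninjured, 1871 to 8642 in injured and 39997 to 47629 in culture libraries, and injured replicate 3 was again lowest. Astrocyte markers (10 of 10 detected) ran the other way, at 4025 to 7200, 2249 to 4004 and 95.5 to 155 CPM. Fibroblast markers (8 of 8 detected) summed to 41.2 to 60.9, 109 to 221 and 437 to 875 CPM, with injured replicate 3 highest of its group. T cell markers (8 genes, 6 to 8 detected) summed to 7.68 to 29.5, 81.7 to 296 and 16.8 to 24.8 CPM. Microglial markers (10 of 10 detected) summed to 10159 to 16544, 6427 to 18808 and 1421 to 2220 CPM, overlapping between uninjured and injured cortex. Mural cell markers summed to 861 to 1632, 507 to 539 and 3257 to 3786 CPM. Oligodendrocyte precursor markers summed to 204 to 485, 232 to 827 and 41.3 to 62.2 CPM, with injured replicate 3 highest of its group. Their uninjured and injured ranges overlapped. Endothelial markers overlapped in all groups, at 221 to 567, 294 to 469 and 265 to 300 CPM. Sums for neutrophils, B cells and erythrocytes are not listed. The part of any of these cells in the mitotic levels was not tested.

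The makeup of the mitotic counts also differed between injured cortex and cultures, given here as shares of the counts of the 34 genes with no test. Cdk1 supplied 5.87% ± 0.457 (SD, n = 3) in injured cortex and 8.99% ± 0.467 in cultures, and Spc25 4.33% ± 0.543 and 6.39% ± 1.12. Cenpa supplied 8.14% ± 1.84 and 3.81% ± 0.515, Ccnb2 6.62% ± 1.81 and 3.73% ± 0.365, and Cks2 6.34% ± 0.843 and 2.58% ± 0.115. In uninjured cortex Cks2 supplied 21.4% ± 12 and Mad2l1 14.7% ± 1.11.

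Levels of different genes were compared as TMM-normalised CPM per kilobase of exon. On that scale Pttg1 was highest in uninjured (107 ± 9.11, SD, n = 3) and injured cortex (75.2 ± 13.4), and Spc25 in cultures (80.8 ± 15.5), where Pttg1 stood at 40.0 ± 8.37. In injured cortex Pttg1 and Cks2 (68.3 ± 25.5) did not differ beyond their spread. In cultures Spc25 did not differ beyond the spread from Cks2 (75 ± 9.06) or Ccnb1 (62.0 ± 10.4). Espl1 was lowest in cultures (0.742 ± 0.273), and Knl1 in uninjured (0.0295 ± 0.0269) and injured cortex (0.551 ± 0.0418). In cultures Espl1 did not differ beyond the spread from Knl1 (1.13 ± 0.177). In uninjured cortex Knl1 did not differ beyond the spread from Bub1 (0.0472 ± 0.0448) or Nek2 (0.0539 ± 0.0526), all with few counts, or from Mki67 (0.0594 ± 0.004). Nor did it in injured cortex from Mybl2 (0.843 ± 0.303) or Sgo1 (0.949 ± 0.387). Spc25 was the highest of the NDC80 complex subunits in every library, at 69.3, 98.5 and 74.8 per kilobase in cultures against 19.0, 19.0 and 15.6 for Ndc80.

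Gene length varied with replicate differences. Across the 37 genes, Spearman's rho between exon length and the log2 difference of injured replicate 3 from its 2 partners was 0.67, and 0.34 over 17623 genes. For culture replicates 1 and 2 it was 0.61 and -0.61 over the 37. Between groups rho was -0.23 for injured against uninjured cortex and 0.10 for cultures against injured cortex. Genes are not independent replicates, so these are descriptions.

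Exons of 6 of the 37 overlap a gene on the opposite strand: Ube2c shares 22.8% of its exon length with Tnnc2, Prc1 21.8% with Rccd1 and Ccna2 10.4% with Exosc9, with smaller overlaps for Nek2, Plk1 and Cdc20. Foxm1 overlaps 2 genes on its own strand. The strand setting of the counting is not given in the sources used here, so reads of such partners cannot be told apart.

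Other parts of the mitotic machinery, 103 genes in 9 lists, had these counts after injury: 41 were higher and 0 lower (8.99% and 2.87% of all genes), with a median of 0.73 (53 and 0 at an unadjusted p under 0.05). The 37 genes and these 103 were not tested against each other. In cultures against injured cortex 58 were higher and 1 lower (20.0% and 30.1% of all genes), and against uninjured cortex 79 and 3 (27.5% and 33.1%). The inner kinetochore network (CCAN), which sits on CENP-A chromatin, had 10 of 15 higher after injury, led by Cenpm (4.02 ± 0.35, adjusted p = 3.32e-05) and Cenph (3.6 ± 0.32, adjusted p = 3.62e-05), and 15 of 15 in cultures against uninjured cortex. Mis12, RZZ and Ska complex genes, which link the inner kinetochore, checkpoint and microtubules, had 5 of 10 higher after injury and 10 of 10 in cultures against injured cortex. Ska1 was at 0, 0.135 and 0.183 CPM in uninjured and 5.10, 4.24 and 3.30 in injured libraries.

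Spindle assembly proteins had 8 of 13 higher after injury, among them Dlgap5 (4.23 ± 0.35, adjusted p = 2.47e-05) and Racgap1 (3.87 ± 0.35, adjusted p = 4.08e-05). Condensins, which compact chromosomes, had 4 of 8, with Ncapg at 4.59 ± 0.41 and Smc2 at 1.78 ± 0.21. Entry into mitosis had 6 of 12, with Gtse1 at 2.76 ± 0.32 and Cks1b at 2.84 ± 0.33. Centromere loading of CENP-A had 2 of 4. Further checkpoint and cohesion genes had 4 of 15, with Cdca5 (sororin) at 3.96 ± 0.30. All genes named with a change in this paragraph passed the test, and 0 genes of these lists were lower after injury. The shares of all genes were 8.99% higher and 2.87% lower.

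The APC/C, the ligase that Cdc20 and Ube2c serve, had no called gene after injury, where 8.99% of all genes were higher and 2.87% lower. Of its 17 subunits and regulators, 0 were called after injury by edgeR, DESeq2 or limma-voom, with 1 higher and 0 lower at an unadjusted p under 0.05. Their median change was 0.15. In cultures 7 were higher against injured cortex (20.0% of all genes) and 9 against uninjured cortex (27.5%). In both comparisons 0 were lower (30.1% and 33.1% of all genes). Fbxo5 (EMI1), an APC/C inhibitor named after its values were seen, was 6.02, 4.90 and 5.98 CPM in uninjured, 6.79, 6.54 and 5.38 in injured and 30.2, 32.0 and 25.3 in culture libraries. It rose by 2.23 ± 0.23 from injured cortex to cultures (adjusted p = 1.25e-05), while its change on injury was 0.15 ± 0.23 (adjusted p = 0.739; -0.01 under library totals).

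MuvB and DREAM genes, the complex that holds late cell cycle promoters in check, had 2 of 9 higher after injury (8.99% of all genes). Limma-voom called 1 of the 9. The 2 genes were Tfdp1 and E2f4, and E2f4 changed by 0.77 ± 0.23 (adjusted p = 0.0484), close to the threshold. Tfdp1, the partner of E2F factors, changed by 0.96 ± 0.20 (adjusted p = 0.00891), a call lost in 4 alternatives (adjusted p from 0.0508 to 0.326), among them without injured replicate 1 and without uninjured replicate 2 or 3. In cultures against uninjured cortex 3 genes of the 103 were lower: Smc3, a cohesin subunit (-0.57 ± 0.19, adjusted p = 0.0220), the microtubule polymerase Ckap5 (-0.83 ± 0.26, adjusted p = 0.0143) and the MuvB subunit Lin52 (-0.94 ± 0.23, adjusted p = 0.00428). The Smc3 call was lost in 4 alternatives (adjusted p from 0.0555 to 0.102) and the Ckap5 call in 2 (0.0538 and 0.0769). Both were lost without culture replicate 3, and Smc3 also without uninjured replicate 1.

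**Figure D5:**
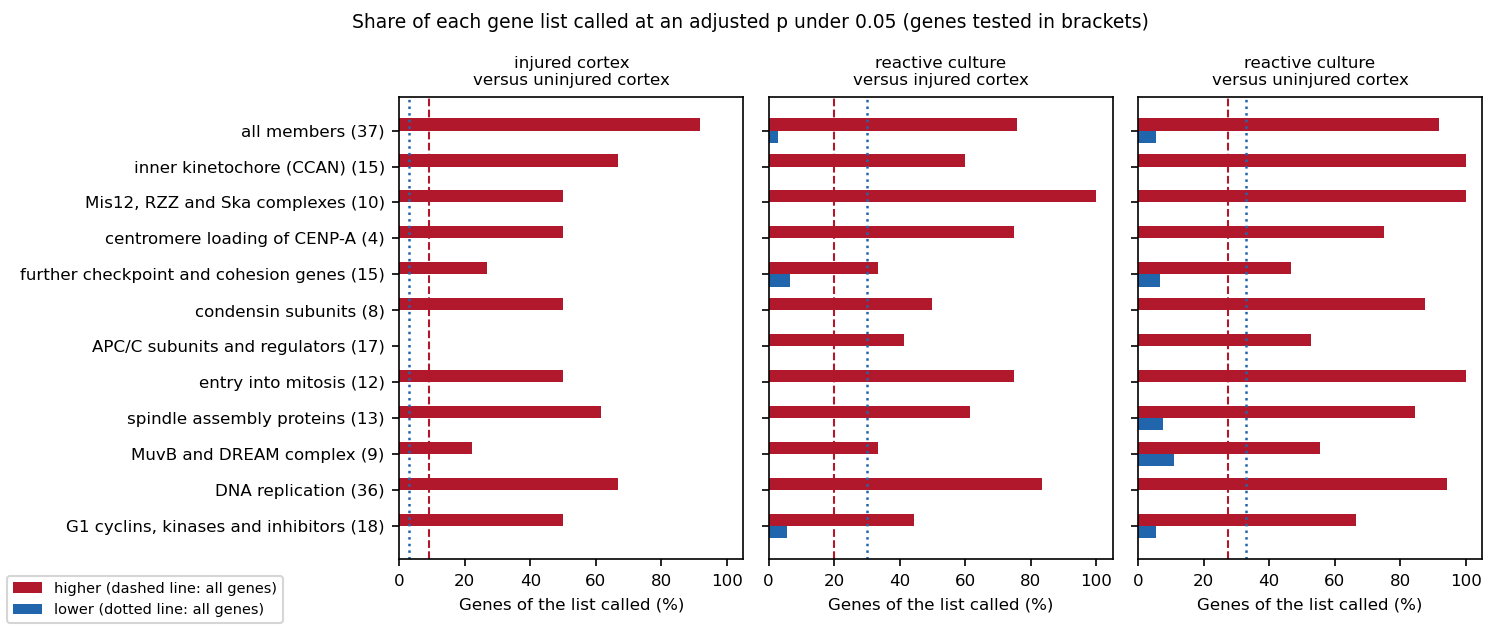
Share of each gene list called higher (red) or lower (blue) in the 3 comparisons, in percent of the genes tested (number in brackets). The dashed and dotted lines give the share of all 18093 genes, and the 37 genes are the top bars.

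DNA replication genes, which act in S phase before mitosis, rose in 24 of 36 after injury with a median of 1.33 (8.99% of all genes were higher), and in 30 of 36 from injured cortex to cultures with a median of 1.23 (20.0% of all genes). Rrm2, a subunit of ribonucleotide reductase, changed by 2.30 ± 0.24 from injured cortex to cultures and Mcm6, of the replicative helicase, by 1.93 ± 0.22. The counts of the 34 mitotic genes divided by those of the 36 replication genes, a ratio that no library scaling changes, were 0.133, 0.140 and 0.136 in uninjured, 0.762, 0.761 and 0.766 in injured and 0.878, 0.836 and 0.834 in culture libraries. The injured values lay close together, although injured replicate 3 had the lowest level of both lists. The 34 are the members called higher on injury, whereas the replication list kept all its genes. That choice enlarges the step from uninjured to injured cortex, so the ratio of the 34 is no independent support for it. With all 37 genes the ratio was 0.668 to 0.849, 0.941 to 1.01 and 0.879 to 0.921. Cultures then lay below injured cortex, the reverse of the order with the 34.

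G1 cyclins, kinases and inhibitors, which act before replication, were higher in 9 of 18 tested after injury and in 8 of 18 from injured cortex to cultures, where 1 was lower. Of all genes, 8.99% were higher after injury, and 20.0% higher and 30.1% lower in that second comparison. Ccne1, cyclin E1, rose by 2.63 ± 0.29 from injured cortex to cultures (adjusted p = 2.06e-05). The lower gene was Cdkn1b (p27), an inhibitor of cyclin-dependent kinases, at 9.81, 5.45 and 13.9 CPM in injured cortex and 4.73, 1.55 and 1.33 in cultures. Its change was -1.93 ± 0.50 (adjusted p = 0.00684), and -2.74 without culture replicate 1.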

How the data were processed

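RNA was sequenced from 3 uninjured cortices, 3 injured cortices and 3 reactive cultures, grouped by the sample labels. The authors deposited raw gene counts, which were used as deposited. Alignment was with HISAT2 to GRCm39, per the submitters' processing notes. For the versions, counting tool, strand setting and annotation, the sources used here give nothing. Of 56748 genes, 19741 had 0 counts in every library. Where a symbol was shared by several genes (77 symbols), the gene with the highest total kept it.

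Counts were fitted in R 4.3.3 with edgeR 4.0.16: filterByExpr at its defaults (minimum count 10) kept 18093 genes, TMM factors scaled the libraries, and a quasi-likelihood model with a mean per group over all 9 libraries (6 residual degrees of freedom) gave each comparison. P-values were adjusted by Benjamini-Hochberg over all genes tested, and calls are at an adjusted p under 0.05. Changes are log2 fold changes ± SE. The procedure was tested on simulated data. Libraries of 1 group correlated at 0.939 to 0.984 and libraries of different groups at 0.738 to 0.934. Injured replicate 3 correlated at 0.929 to 0.934 with the uninjured libraries, and at 0.948 and 0.939 with injured replicates 1 and 2. P-values weigh a difference against the spread estimated over all 9 libraries, and hold for these samples.

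The 37 members and all lists were chosen with earlier results of these data known. Values in every library were given for the member of each role with the smallest adjusted p on injury, the 2 highest and lowest changes of each comparison and members that missed the call. From the other lists, up to 3 genes by adjusted p, plus exceptions that were called, could be named, and a selection of these is. Exon lengths came from GENCODE vM21, used for lengths and overlaps only, and promoters from RefSeq on GRCm38.p6, a build other than that of the counts.

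Alternatives were DESeq2 1.42.0 size factors and Wald test, upper-quartile factors, voom in limma 3.58.1, no filter, 1 CPM in at least 3 libraries, fitting only the compared pair of groups, a replicate block, each library left out, uninjured replicates 2 and 3 left out together, and, chosen after seeing the data, library totals as the only scaling.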

Additional observations from a re-analysis of the deposited data

How the results depend on the processing

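The number of the 37 genes called higher after injury was 30 to 34 in every alternative tried, 25 to 30 in cultures against injured cortex, and 34 in cultures against uninjured cortex. Leaving out each library in turn gave 32 to 34, 27 to 30 and 34 genes higher, and 0, 1 to 3 and 2 to 3 lower. Genes lower in cultures against injured cortex were 2 with upper-quartile factors, 2 with no filter and 3 with library totals. Library totals gave 1 gene lower after injury, Pttg1 (adjusted p = 0.0427). Without uninjured replicates 2 and 3, 1 gene was lower in cultures against uninjured cortex. The cause of these moves was not tested.

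Over all genes, 1626 higher and 519 lower after injury became 1041 and 328 in a fit of the 2 groups, and 420 and 42 without uninjured replicates 2 and 3, settings with fewer samples. DESeq2's Wald test gave 1246 lower and no filter 911. Leaving out each library gave 855 to 2424 higher and 119 to 1678 lower; the lowest counts were without injured replicate 1. In cultures against injured cortex these ranges were 2700 to 3666 and 4452 to 5664, and against uninjured cortex 4190 to 5331 and 5314 to 6816. Library totals gave 1648 higher and 7854 lower in cultures against injured cortex (3613 and 5444 with TMM) and 2534 and 8774 against uninjured cortex (4969 and 5985), with all-gene medians of -0.79 and -0.90, and -0.13 after injury. Upper-quartile medians were -0.12, -0.27 and -0.37. Upper-quartile factors gave 1352 and 761 after injury. Without uninjured replicates 2 and 3, 3043 were higher and 3954 lower in cultures against uninjured cortex. In CPM of the library total the summed level of the 37 averaged 402 in uninjured and 1568 in culture libraries, against 329 and 2111 with TMM. The forkhead share of promoters was 3.23% with 150 bases before the start, below the 6.58% of all promoters, against 16.1% and 11.6% with 250 bases.

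Some directions reversed, none in a called result. On injury Espl1 was -0.0155 with upper-quartile factors and -0.0444 with library totals, and ranged from -0.0722 (injured replicate 2 out) to 0.2741 over single libraries left out, with -0.0033 when uninjured replicate 3 was out. Smc3 was 0.03 on injury and -0.0434 with DESeq2 size factors (-0.043 by its Wald test), -0.0891 with upper-quartile factors, -0.0011 at 1 CPM in 3 libraries, -0.0707 with library totals and -0.1714 with uninjured replicates 2 and 3 out. Over single libraries left out it ranged from -0.114 (injured replicate 3 out) to 0.1497, with -0.0783 when uninjured replicate 2 was out. Fbxo5 was -0.0133 with library totals and Cdkn1b -0.0184 to 0.6449 over single libraries left out, the lowest with injured replicate 3 out. In cultures against injured cortex, library totals gave -0.37 for Cks2, -0.19 for Cenpa, -0.20 for Cenpf and -0.23 for Cenpm, and Cks2 ranged from -0.136 (injured replicate 3 out) to 0.3409 over single libraries left out.

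The replicate numbers showed no clear pairing: same-numbered libraries deviated together with correlations of -0.09 to 0.35, over 0.1 in 3 of 9 pairs. Of the 9 libraries, 5 correlated best with their own number. With 3 libraries a group this cannot settle whether same-numbered samples shared a batch or animal. With the replicate block, 34 genes were higher and 0 lower after injury, 30 and 1 in cultures against injured cortex and 34 and 2 against uninjured cortex. Uninjured depth limits the genes with few counts there, such as Bub1, Knl1 and Nek2, whose size of change is uncertain. Uninjured replicate 1 held 0 counts of Bub1 and Knl1, where 3 counts equal 0.187 CPM of its total. With 3 libraries a group, small changes are often missed.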
